A study of Prunus persica with 8 samples.

Results

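MAX2 (Prupe.3G117700), MAX2-like (Prupe.1G158200) and Prupe.7G227500 were followed in branch tips of pillar and standard peach trees (Prunus persica). They were chosen by gene ID, as the genes that the study's list of differentially expressed genes placed under strigolactone with the names MAX2 and MAX2-like, and 1 further strigolactone gene of that list. They are 3 of the 26873 genes in the deposited table, and all 3 were among the 20055 genes with enough expression to be tested. Another gene placed under strigolactone in the same list, Prupe.1G423400, is given beside them as the rest of the listed pathway. The list was drawn up on the same trees, so membership is not independent evidence of a direction.

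Pillar trees are homozygous for the mutated TAC1 gene (tac1/tac1) and hold their branches nearly upright. Standard trees are homozygous for the normal TAC1 gene and have the usual spreading habit. Pillar trees bore the numbers 4, 7, 8 and 10, and standard trees the numbers 7, 8, 9 and 10. All 8 were mature, untreated, field-grown individuals of 1 segregating F2 population that came from selfing a tree heterozygous for pillar. The tips of lateral shoots of each tree gave 1 library, and the data of the standard trees had also served an earlier study. The model is limited to 1 population, and a shoot tip is a mixed tissue of meristem, young leaf bases and stem. In such bulk tissue, fewer cells of a type and less RNA per cell cannot be told apart. The labelled tissue was not checked against marker genes here, because the reference table used here holds none of the IDs of the deposited table, and the study's list names only the genes it selected.

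Strigolactones are carotenoid-derived hormones that are best known for holding back the outgrowth of axillary buds. In Arabidopsis and other species the hormone is bound by D14, an alpha/beta-hydrolase that acts as its receptor, and the bound receptor joins MAX2, the F-box subunit of an SCF ubiquitin ligase that marks repressor proteins of the SMXL family for degradation. MAX2 serves in the same way the karrikin receptor KAI2, so it is shared between both pathways. In the study's list MAX2 was matched to the Arabidopsis gene AT2G42620, which is MAX2 itself, and MAX2-like to AT3G48880, a gene of the leucine-rich repeat type that is not MAX2. Prupe.7G227500 was matched to AT3G24420, known in Arabidopsis as DLK2, a hydrolase related to D14 and KAI2, and Prupe.1G423400 to AT3G03990, which is D14.

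Across the 8 libraries 18429259 to 23994336 reads were recovered per tree. TAC1 (Prupe.2G194000) checked the labels: it had 0.802 to 1.27 TPM in pillar trees, against 17.2 to 28.2 TPM in standard trees (log2 fold change -3.99, adjusted p = 4.31e-05 from limma). TPM is the number of transcripts of a gene per 1000000 transcripts of the library after scaling by gene length, where length here covers exons and introns. Log2 fold changes are pillar over standard on the log2(TPM + 0.5) scale, which understates the change of genes with low values. The median over all tested genes was -0.09, and 30.7% of the tested genes were higher in pillar trees. This depended on the scaling, with a median of -0.046 and 39.4% higher under upper quartile scaling, and -0.0044 and 49.1% under limma voom on recovered reads. The deposited column names place pillar trees 4 and 7 in sequencing lane 8, and all others in lane 6. Pillar tree 4 was also the highest of the 8 trees for 31.8% of the tested genes, against 6.21% to 14% for each of the others.

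MAX2, the F-box subunit, was the member that kept the growth habits apart. It lies on chromosome 3 of peach genome version 2, from 10062480 to 10065001 on the minus strand, and no other gene overlaps it. MAX2 had 59.0, 56.1, 47.4 and 44.1 TPM in pillar trees 4, 7, 8 and 10, against 43.7, 28.1, 33.7 and 38.0 TPM in standard trees 7, 8, 9 and 10. Every pillar tree lay above every standard tree, but the lowest pillar tree and the highest standard tree were only 0.385 TPM apart. The pillar trees averaged 51.6 ± 7.07 TPM and the standard trees 35.8 ± 6.62 TPM (± SD, 4 trees each), and their ratio was 1.44. The values rested on 1059 to 1249 reads in pillar trees, against 622 to 988 reads in standard trees, so counting error was smaller than the spread between trees. It was not smaller than the gap: the 95% exact Poisson interval, which covers counting error only, was 41.4 to 46.8 TPM in pillar tree 10, against 41.0 to 46.5 TPM in standard tree 7, and the order of these trees was not resolved at this depth.

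The log2 fold change of MAX2 was 0.53 (standard error 0.16, 95% interval 0.17 to 0.89). In limma its unadjusted p was 0.00881 and its adjusted p was 0.823 over all tested genes, so it did not pass adjustment. The two-sided exact permutation test over trees gave p = 0.0286, the smallest that 4 trees against 4 allow, and 1% of all tested genes had every pillar tree above every standard tree. The fold change of MAX2 exceeded that of 96.5% of the tested genes, and its spread within growth habits was ordinary, with a residual SD of 0.23 on the log2 scale that was above that of 39.9% of the tested genes.

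With any 1 tree left out, the log2 fold change of MAX2 stayed between 0.42 and 0.63, and the unadjusted p from limma stayed at or below 0.0254. The 2 pillar trees of lane 8 were its highest trees, and within lane 6 alone, with pillar trees 8 and 10 against the 4 standard trees, the log2 fold change was 0.36 with an unadjusted limma p of 0.0843. The part of the lane in the difference was not tested further, since no standard tree was read in lane 8.

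**Figure D1:**
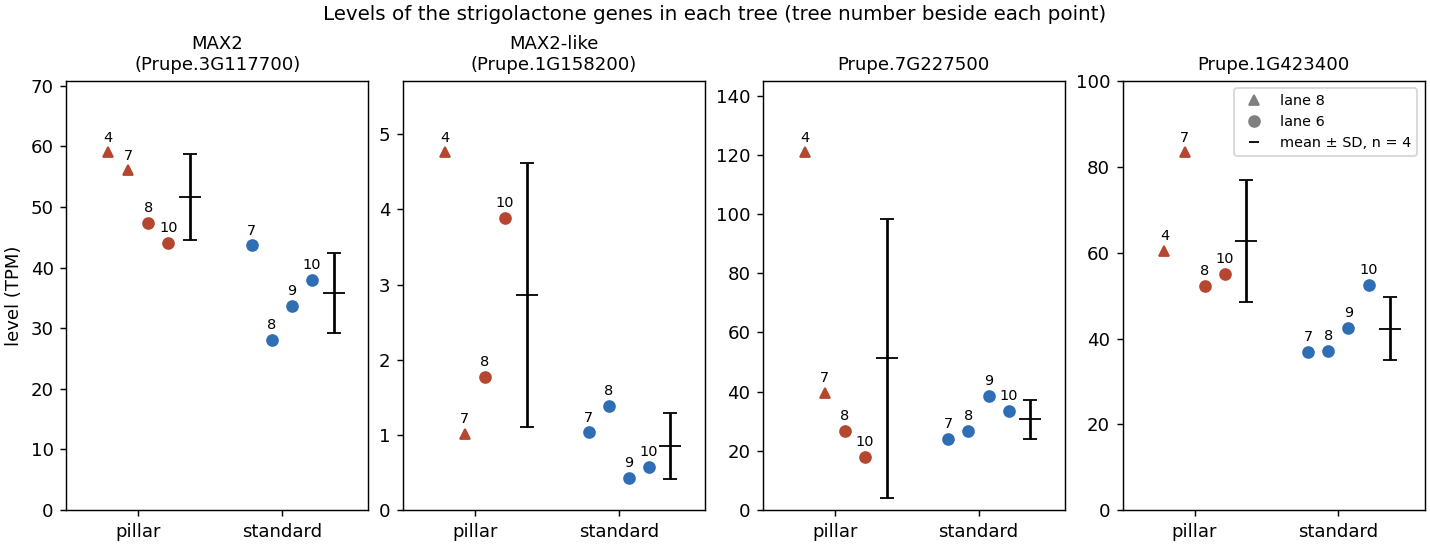
Levels in TPM of MAX2, MAX2-like, Prupe.7G227500 and Prupe.1G423400 in each pillar tree (left, red) and each standard tree (right, blue), with the tree number beside each point, triangles for lane 8, circles for lane 6, and bars for the mean ± SD of 4 trees. MAX2 separates the growth habits by 0.385 TPM, whereas the other 3 genes overlap and Prupe.7G227500 reaches 121 TPM in pillar tree 4 alone.

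MAX2-like, for which no role is known from these annotations, had the largest fold change of the members at the lowest level. It lies on chromosome 1 from 12547604 to 12549657 on the plus strand, also with no overlapping gene. MAX2-like had 4.76, 1.01, 1.77 and 3.88 TPM in pillar trees 4, 7, 8 and 10, against 1.03, 1.38, 0.431 and 0.571 TPM in standard trees 7, 8, 9 and 10. High values were found in pillar trees 4 and 10, and pillar tree 8 was above every standard tree, but pillar tree 7 fell below standard trees 7 and 8, so the groups overlapped. The pillar trees averaged 2.86 ± 1.76 TPM and the standard trees 0.854 ± 0.437 TPM (± SD, 4 trees each), a ratio of 3.34.

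These levels of MAX2-like rested on 82, 16, 33 and 76 reads in pillar trees 4, 7, 8 and 10, against 19, 25, 8 and 11 reads in standard trees 7, 8, 9 and 10. The 95% exact Poisson interval was 3.78 to 5.91 TPM in pillar tree 4 and 0.578 to 1.64 TPM in pillar tree 7, against 0.186 to 0.850 TPM in standard tree 9. The distance between pillar trees 4 and 7 was thus larger than counting error, and the mean level was above that of only 11.1% of the tested genes. The residual SD of MAX2-like was above that of 91.6% of the tested genes.

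The log2 fold change of MAX2-like was 1.19 (standard error 0.42, 95% interval 0.24 to 2.15), with an unadjusted p of 0.0194 and an adjusted p of 0.902 from limma. The two-sided exact permutation test gave p = 0.0857. Leaving out 1 tree at a time moved the log2 fold change between 0.92 and 1.52. The unadjusted limma p was 0.0547 without pillar tree 4, 0.0564 without pillar tree 10 and 0.0522 without standard tree 9, and it was 0.00352 without pillar tree 7. Within lane 6 the log2 fold change was 1.28 with an unadjusted limma p of 0.0160. The size depended on the constant added before taking logs, with 1.52 for 0.1 TPM and 0.96 for 1 TPM, and limma voom on the recovered reads gave 1.76.

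Prupe.7G227500, the match to the hydrolase DLK2, had its highest level in 1 tree by a wide margin. It lies on chromosome 7 from 20092609 to 20094324 on the minus strand and overlaps no other gene. It reached 121, 39.6, 26.7 and 17.9 TPM in pillar trees 4, 7, 8 and 10, against 24.0, 26.7, 38.6 and 33.4 TPM in standard trees 7, 8, 9 and 10. Pillar tree 4 stood above the rest. Dixon's ratio over the 4 pillar trees was 0.789, short of its critical value of 0.829, but with 4 values this test can miss an outlier. The other 3 pillar trees spanned the whole range of the standard trees and went below it. The pillar trees averaged 51.2 ± 47.3 TPM and the standard trees 30.7 ± 6.63 TPM (± SD, 4 trees each). The ratio of the means was 1.67 and the ratio of the medians was 1.10. Pillar trees 7, 8 and 10 alone averaged 28.0 ± 10.9 TPM (SD, n = 3).

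The log2 fold change of Prupe.7G227500 was 0.36 (standard error 0.50, 95% interval -0.77 to 1.502), with an unadjusted p of 0.488 and an adjusted p of 0.911 from limma, and the two-sided exact permutation test gave p = 0.686. Without pillar tree 4 the log2 fold change was -0.18, and within lane 6 it was -0.46, so its direction depended on that tree. Pillar tree 4 exceeded the mean of the other pillar trees by 2.16 on the log2 scale, more than for 99.2% of the tested genes. The interval includes a change of more than 1.5-fold in either direction, so these trees do not settle whether there is a difference of that size.

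Prupe.1G423400, the match to the receptor D14, is the remaining listed strigolactone gene. It lies on chromosome 1 from 36508729 to 36510371 on the minus strand. It had 60.4, 83.4, 52.2 and 55.0 TPM in pillar trees 4, 7, 8 and 10, against 36.9, 37.2, 42.5 and 52.6 TPM in standard trees 7, 8, 9 and 10. Pillar tree 8 was just below standard tree 10, and otherwise the pillar trees were the higher ones. The pillar trees averaged 62.8 ± 14.2 TPM and the standard trees 42.3 ± 7.34 TPM (± SD, 4 trees each), and the log2 fold change was 0.55 (standard error 0.18, unadjusted p = 0.0120, adjusted p = 0.853 from limma). The two-sided exact permutation test gave p = 0.0571, and within lane 6 the log2 fold change was 0.35 with an unadjusted limma p of 0.0696.

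Of the 3 members, 0 had an adjusted p under 0.05 in limma, where 0.12% of the tested genes did in either direction and 0.0598% were higher in pillar trees. MAX2 and MAX2-like, 2 of the 3, were higher in pillar trees at an unadjusted p of at most 0.05, against 1.86% of all tested genes. The members were listed for their change in these same trees. The shares over all tested genes, here and in the rest of this paragraph, are therefore not a like base for the members. Limma voom on the recovered reads also gave counts of 0 and 2 for the members, where 0.11% of the tested genes passed adjustment in either direction and 3.23% were higher at an unadjusted p of at most 0.05. The study's criteria as applied to this fit, an unadjusted p of at most 0.05, a change over 1.5-fold and 5 or more reads on average per growth habit, were met by MAX2-like alone, against 1.12% of all tested genes. MAX2 missed them on the fold change, at 1.44, but met them without pillar tree 10 (log2 fold change 0.60), without standard tree 7 (0.63) and by voom (0.63). Prupe.7G227500 missed them on the fold change, at 1.29, and also on the p. Without pillar tree 4, without pillar tree 10 or without standard tree 9, MAX2 alone of the members had an unadjusted p of at most 0.05.

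All 4 listed strigolactone genes had a log2 fold change above 0, and 3 of the 4 had an unadjusted p of at most 0.05 with all trees, against 1 of the 4, MAX2-like, within lane 6. With all trees, the median log2 fold change was 0.54 over the 4 genes and 0.53 over the 3 members, beside -0.09 over all tested genes. Since the genes were listed for their change in these trees, the shared sign describes the list and adds nothing to it. Both lane 8 trees were the highest of the 8 for MAX2 and Prupe.1G423400 and, with pillar tree 4 in front, for Prupe.7G227500, which makes 3 of the 4 listed genes. For Prupe.7G227500, pillar tree 7, at 39.6 TPM, was hardly above standard tree 9, at 38.6 TPM. Over all tested genes, 4.27% had both lane 8 trees highest. Both are pillar trees, and the genes were listed for their change between habits, so that share is not a like base for them.

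**Figure D2:**
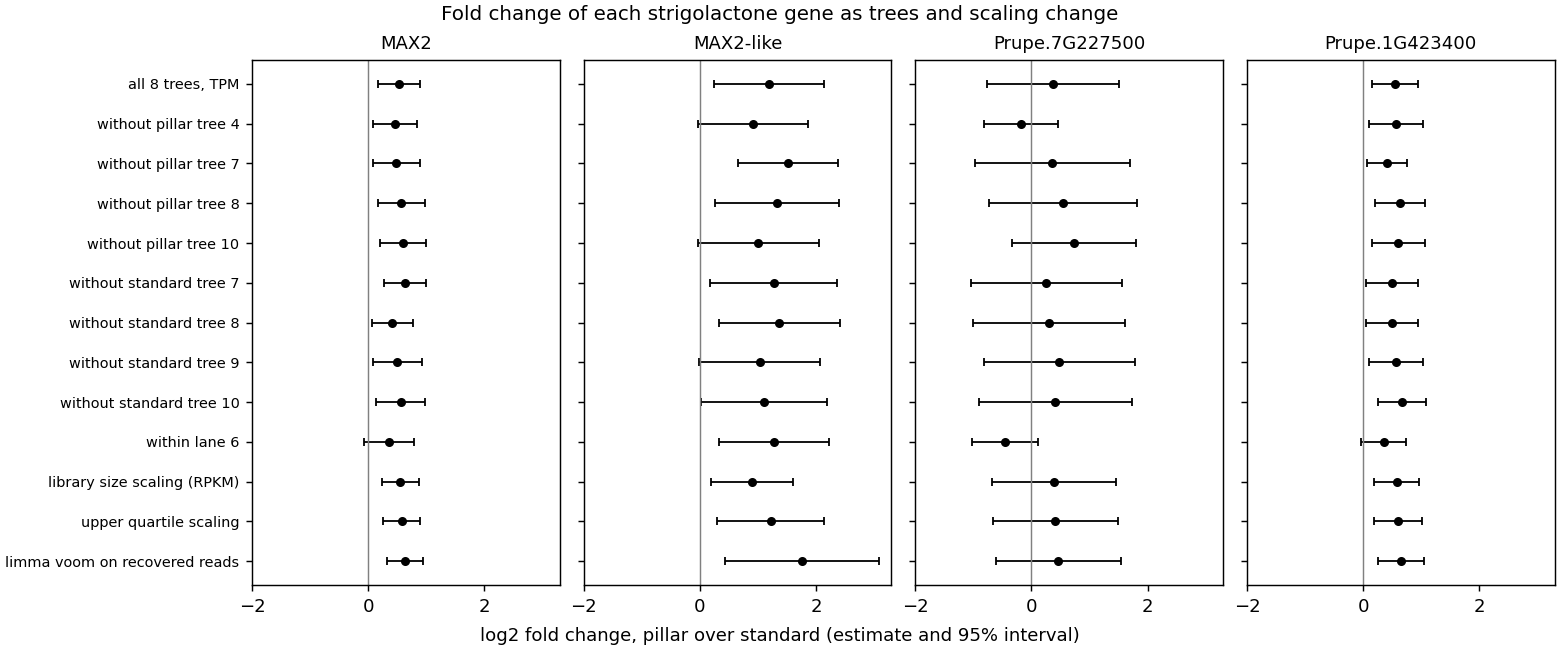
Log2 fold change (pillar over standard) of the 4 genes with its 95% interval, across the panels, for all 8 trees and, down the page, for each tree left out, lane 6 alone and other scalings or tests. The estimates of MAX2 and MAX2-like stay above 0 at every setting shown, at 0.53 and 1.19 with all trees. The interval includes 0 for MAX2 within lane 6, and for MAX2-like without pillar tree 4, pillar tree 10 or standard tree 9. The estimate of Prupe.7G227500 moves to -0.18 without pillar tree 4 and -0.46 within lane 6.

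In 5 of 8 trees the order of the levels per length, from the highest down, was the D14 match, MAX2, Prupe.7G227500 and MAX2-like. Length here includes introns, so an order or ratio between genes also depends on their intron content. MAX2-like was the lowest of the 4 genes in 8 of 8 trees. MAX2 was above Prupe.7G227500 in 6 of 8 trees, the exceptions being pillar tree 4 and standard tree 9, and the neighbouring means of these genes, 51.6 and 51.2 TPM in pillar trees against 35.8 and 30.7 TPM in standard trees, did not differ beyond their spread. MAX2 was below the D14 match in 7 of 8 trees, and standard tree 7 was the exception. The D14 match thus had 1.02, 1.49, 1.10 and 1.25 times the TPM of MAX2 in pillar trees 4, 7, 8 and 10, against 0.845, 1.33, 1.26 and 1.38 times in standard trees 7, 8, 9 and 10. These ranges overlapped widely.

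Ratios within a tree were used to ask whether the members differed from each other in their difference between growth habits. MAX2-like reached 8.06%, 1.80%, 3.73% and 8.81% of the TPM of MAX2 in pillar trees 4, 7, 8 and 10, against 2.36%, 4.94%, 1.28% and 1.502% in standard trees 7, 8, 9 and 10. The highest shares were those of pillar trees 4 and 10, pillar tree 7 was among the lowest, and the groups overlapped. On the log2 scale, with 0.5 TPM added, this ratio averaged -4.12 ± 0.87 over the pillar trees and -4.78 ± 0.60 over the standard trees (± SD, 4 trees each), a difference of 0.67 (two-sided exact permutation test, p = 0.257, adjusted over 3 pairs 0.514). The added constant is of the size of MAX2-like itself, and the difference was 0.98 with 0.1 TPM added and 0.44 with 1 TPM. It was 0.41 without pillar tree 10 and 1.04 without pillar tree 7.

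Prupe.7G227500 had 2.05, 0.706, 0.563 and 0.405 times the TPM of MAX2 in pillar trees 4, 7, 8 and 10, against 0.549, 0.952, 1.15 and 0.880 times in standard trees 7, 8, 9 and 10. Outside pillar tree 4 the pillar trees were mostly at the low end. The log2 ratio averaged -0.39 ± 0.999 over the pillar trees and -0.23 ± 0.45 over the standard trees (± SD, 4 trees each), a difference of -0.16 (exact permutation p = 0.829, adjusted 0.829), which was -0.64 without pillar tree 4, turned to 0.13 without pillar tree 10 and was -0.82 within lane 6. The log2 ratio of MAX2-like to Prupe.7G227500 averaged -3.73 ± 1.21 over the pillar trees and -4.56 ± 0.75 over the standard trees (± SD, 4 trees each), a difference of 0.83 (exact permutation p = 0.343, adjusted 0.514), which became 0.28 when pillar tree 10 was left out, 0.55 when standard tree 9 was, and 1.73 in lane 6 alone. Thus MAX2-like was not shown to differ between growth habits more than MAX2 did, despite its larger fold change, and with such spreads none of the 3 tests shows that the members behave alike.

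**Figure D3:**
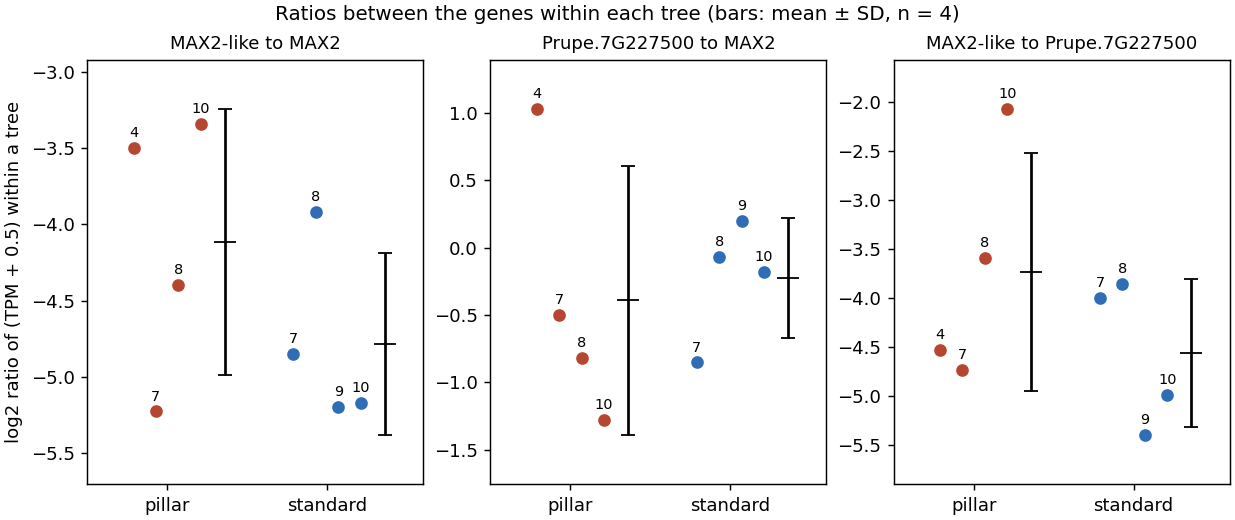
Log2 ratio of (TPM + 0.5) between members within each pillar tree (left, red) and each standard tree (right, blue), with tree numbers and bars for the mean ± SD of 4 trees. The groups overlap in all 3 panels, and pillar tree 4 lies highest for Prupe.7G227500 to MAX2.

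**Figure D4:**
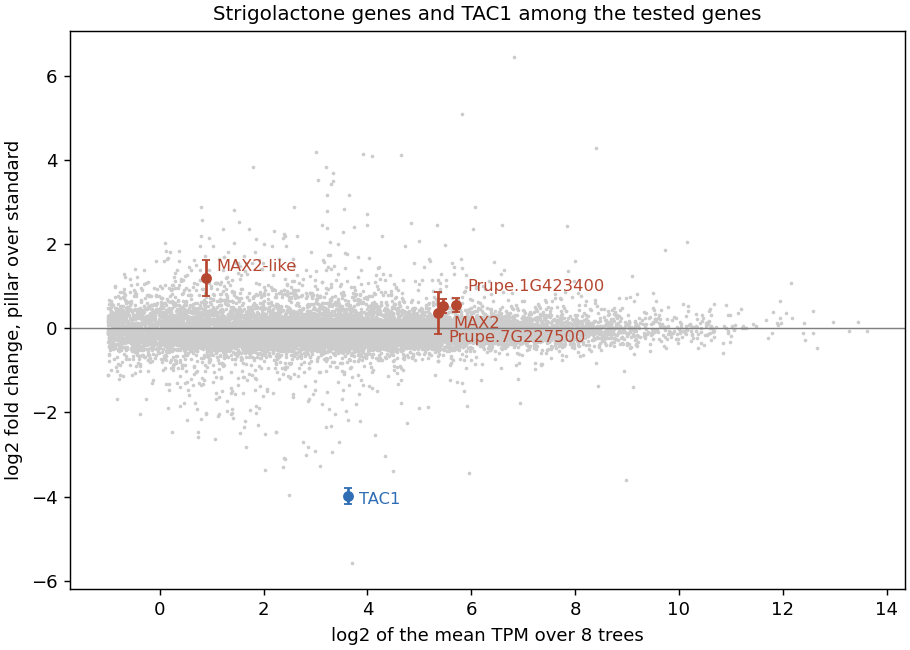
Log2 fold change (pillar over standard) against the log2 of the mean TPM over 8 trees for the 20055 tested genes (grey), with the strigolactone genes in red and TAC1 in blue, each with its standard error. The strigolactone genes lie above 0, at 0.36 to 1.19, inside the cloud of tested genes. TAC1 lies at -3.99, and 0.00997% of the tested genes lie lower.

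The members followed each other only loosely over the 8 trees. The correlation of log2(TPM + 0.5) between MAX2 and MAX2-like was r = 0.50 (Spearman rho 0.55), between MAX2 and Prupe.7G227500 0.47 (rho 0.31), and between MAX2-like and Prupe.7G227500 0.27 (rho -0.19), each over n = 8 trees that share library and growth habit. MAX2 was closest among the listed genes to the D14 match, with r = 0.76 (rho 0.74), which was place 296 among the 20054 other tested genes. These values are descriptions of 8 points.

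The 5 tested genes most like MAX2 over the 8 trees were Prupe.1G223200, Prupe.3G103700, Prupe.1G459400, Prupe.7G238700 and Prupe.1G323600, with r between 0.95 and 0.97. These genes, and those given below for the other members, were picked for likeness over the same trees. A shared order, peak or direction therefore follows largely from that choice and is no separate result. Prupe.1G323600 ranked the trees exactly as MAX2 did (rho 1) and had 3.47, 3.37, 3.21 and 2.91 TPM in pillar trees 4, 7, 8 and 10, against 1.73, 0.673, 1.26 and 1.46 TPM in standard trees 7, 8, 9 and 10. Its groups did not overlap, and the log2 fold change of 1.11 had an adjusted limma p of 0.295. Prupe.3G103700, which overlaps another gene so that its reads may be shared, had 35.3 ± 9.54 TPM over the pillar trees and 22.3 ± 4.26 TPM over the standard trees (± SD, 4 trees each).

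The 5 most like MAX2-like were Prupe.5G078100, Prupe.2G242300, Prupe.4G245500, Prupe.3G101500 and Prupe.6G030600, with r between 0.93 and 0.97. As the choice by likeness favours, each had its highest value in pillar tree 4 or 10, and all 5 had a higher mean in pillar trees. Prupe.3G101500, for example, had 13.9, 3.86, 4.27 and 7.55 TPM in pillar trees 4, 7, 8 and 10, against 3.63, 6.22, 2.60 and 1.84 TPM in standard trees 7, 8, 9 and 10. High values again came from pillar trees 4 and 10, and pillar trees 7 and 8 lay within the range of the standard trees.

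The 5 most like Prupe.7G227500 were Prupe.1G387500, Prupe.3G076500, Prupe.7G237500, Prupe.8G258700 and Prupe.2G308700, with r between 0.95 and 0.97. The choice by likeness favours a peak in pillar tree 4, which all 5 had, and their log2 fold changes ran only between 0.02 and 0.30. Prupe.7G237500 had 154, 77.7, 65.9 and 63.7 TPM in pillar trees 4, 7, 8 and 10, against 63.4, 61.4, 75.2 and 74.1 TPM in standard trees 7, 8, 9 and 10. It shared with Prupe.7G227500 the peak in pillar tree 4, and its other 7 trees lay close together. Prupe.8G258700 overlaps another gene.

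Because the trees come from 1 segregating population, the 5 nearest tested genes on each side of each member were read in the same fit. Of the 10 neighbours of MAX2, 3 were higher in pillar trees, where 30.7% of all tested genes were. None of these neighbours had an unadjusted limma p of at most 0.05, where 4.77% of all tested genes did in either direction. Their log2 fold changes ran between -1.24 and 0.43 with a median of -0.12. The 10 neighbours of MAX2-like ran between -0.25 and 0.20 with a median of -0.09, and those of Prupe.7G227500 between -0.65 and 0.55 with a median of -0.04. In each of these regions too, 3 of 10 were higher, 0 reached an unadjusted p of 0.05 and 0 separated the growth habits. The lowest value, -1.24, belonged to the MAX2 neighbour Prupe.3G117100 and was larger in size than the 0.53 of MAX2. That neighbour averaged only 0.431 TPM in pillar trees and 1.41 TPM in standard trees, close to the 0.5 TPM added before taking logs. The members came from a list of changed genes and the neighbours did not, so these values are only set side by side, and no difference between them was tested.

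**Figure D5:**
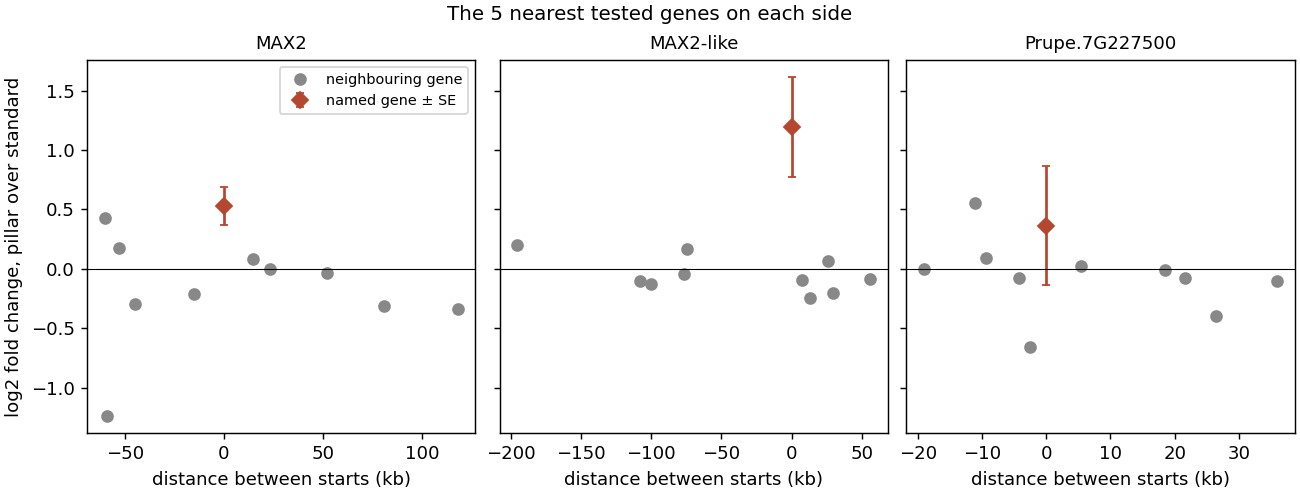
Log2 fold change (pillar over standard) of each member (red, ± standard error) and of the 5 nearest tested genes on each side (grey) against the distance between gene starts in kb. The neighbours of MAX2-like stay between -0.25 and 0.20 around its 1.19, and 1 neighbour of Prupe.7G227500, at 0.55, lies above it.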

How the data were processed

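RNA was sequenced from shoot tips of 4 pillar and 4 standard trees as single 50-bp reads. After trimming, the authors mapped reads in CLC Genomics Workbench against peach genome version 2, and they deposited 1 TPM value per gene and tree. RPKM is named in the methods, but the deposited columns hold TPM. The 6 columns of the authors' own comparison (fold changes, p-values and the larger group mean) were not used. Each gene had a second entry that was 0 throughout and was left out. TPM times gene length is a whole multiple of 1 read (within 0.05 reads) for 100% of nonzero values under 10000 reads, and this gave reads per gene and per tree. Reads that match several places could be assigned to more than 1 gene by this kind of alignment, and 2746 genes overlap another.

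Growth habits were compared, as labelled, with limma 3.58.1 in R 4.3.3 (lmFit and trended eBayes) fitted to log2(TPM + 0.5). Genes entered if they averaged 0.5 TPM or more over the trees, and p-values were adjusted by the Benjamini-Hochberg method over all of them. Exact permutation tests over trees used scipy 1.17.1 in Python 3.11.15. The fit was tested on simulated data. Alternatives were other scalings, pseudocounts, filters, voom on recovered reads, each tree left out, lane 6 alone and the tree number as a block. The genes named were the members, the listed strigolactone genes, TAC1 and the 5 tested genes with the highest Pearson r to each member. Prupe.1G323600, Prupe.3G103700, Prupe.3G101500 and Prupe.7G237500 were picked from the last group after their values were seen. The neighbours were added with the values known. The members, lists and tests were chosen with earlier results of these data known. No sequences are printed, since none was matched to these IDs.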

Additional observations from a re-analysis of the deposited data

How the results depend on the processing

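The log2 fold changes of MAX2, MAX2-like and Prupe.1G423400 stayed above 0, and none of the members had an adjusted p under 0.05, in any of the 17 alternatives. With each tree left out the ranges were 0.42 to 0.63 for MAX2, 0.92 to 1.52 for MAX2-like, -0.18 to 0.73 for Prupe.7G227500 and 0.41 to 0.66 for Prupe.1G423400, and under the other alternatives 0.36 to 0.63, 0.76 to 1.76, -0.46 to 0.46 and 0.35 to 0.65. Adjusted limma p ranged between 0.291 and 0.9996 for MAX2, 0.225 and 0.9996 for MAX2-like, and 0.362 and 0.9998 for Prupe.7G227500. Prupe.7G227500 turned to -0.18 without pillar tree 4, -0.46 within lane 6 and -0.059 with the tree number as a replicate block. The ratio of Prupe.7G227500 to MAX2 ran between -0.64 and 0.13 with a tree left out and turned to 0.13 without pillar tree 10. The cause was not tested.

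Over all genes, 24 had an adjusted p under 0.05, with 17 to 85 when a tree was left out (85 without standard tree 8) and 22 by voom on recovered reads. In all alternatives 3 or 4 of the 4 listed genes were higher in pillar trees. The tree number as a replicate block gave 0.44 for MAX2, 0.76 for MAX2-like and 0.57 for Prupe.1G423400, with 6 genes called. The numbers are names of trees, and the deviations of same-numbered trees correlated at 0.287, 0.0964 and -0.0911 for numbers 7, 8 and 10, so they were not taken as pairs. At an unadjusted p of at most 0.05, the tested genes split into 373 higher and 583 lower ones, against 507 and 502 with upper quartile scaling and 648 and 324 by voom.

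Depth limits MAX2-like, with as few as 8 reads in a tree, more than the other members, with at least 292. With 4 trees a group, 1 tree can set a mean, and no standard tree was read in lane 8, so lane and habit cannot be fully told apart. Whether both habits were harvested together is not given in the sources used here.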
